A study of Mus musculus with 12 samples.

Results

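The genotype by time interaction asks, gene by gene, whether the difference between Chd5-/- and wild-type neural stem cells was the same at 48 h of differentiation as at 3 h. It was tested in all 12 of the 12 RNA-seq libraries of the series as the change from 3 h to 48 h in the cells labelled Chd5-/- minus the same change in wild type. Of 16043 genes tested, 37 passed, or 0.231% of them (edgeR quasi-likelihood F test, Benjamini-Hochberg adjusted p under 0.05). The interaction was higher, meaning that the level relative to wild type went up from 3 h to 48 h, in 22 genes (0.137% of those tested), and lower in 15 (0.0935%). The 37 genes were sorted by the genotype difference at each time. In 16 "lost" genes it passed at 3 h and not at 48 h, and in 7 "gained" genes at 48 h and not at 3 h. In 8 "faded" genes it passed at both times with the same sign and was smaller at 48 h, in 1 "grown" gene it was larger at 48 h, and in 5 "reversed" genes it passed at both times with opposite signs. These names describe which tests passed. A difference that missed the threshold at 1 time is not shown to be absent there.

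The 4 groups were mouse primary neural stem cells, wild type (WT) or Chd5-/-, sampled 3 h and 48 h into neural differentiation, with 3 libraries in each. All had been kept in DMEM/F-12 with N-2, epidermal growth factor (EGF) and fibroblast growth factor 2 (FGF2), and the change to neurobasal medium with B-27 started differentiation in all 4 groups. The TruSeq Stranded mRNA kit was used for every library. The source of each replicate (animal or culture) and the extent of the Chd5 deletion are not stated in the labels, so p-values measure the spread between these libraries, which may be technical.

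Neural stem cells divide while EGF and FGF2 are supplied. When these are withdrawn they leave the cell cycle and turn into neurons, astrocytes and oligodendrocytes. Chd5 encodes a chromodomain helicase found mainly in neural tissue, where it can be part of a nucleosome remodelling and deacetylase (NuRD) complex. An interaction gene is one whose change from 3 h to 48 h differed between the genotypes, whichever genotype moved. Both times lie after the medium change, and no library from before it was analysed here.

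The libraries held 14.11 to 18.71 M estimated reads, and levels below are CPM, reads scaled to a common TMM-adjusted library size. In 3 groups 1 library stood apart: wild type at 3 h replicate 1, where ribosomal protein genes took 15.9% of reads against 3.47% to 4.38% in the others, and replicate 2 of both genotypes at 48 h, where 24 mitosis genes had a mean log2(CPM + 1) of 7.01 and 6.86 against 3.23 to 3.28 in the other 48 h libraries. Pairs within a group that include these had a chi-square per gene of 138 to 451, and all other pairs 1.83 to 5.53. Wild type at 3 h replicate 1 also had a read-weighted mean transcript length of 1805 bases, against 3040 to 3304 in the other libraries. Without these 3 libraries, the fit of the remaining 9 called 6669 of 16489 genes (40.4%) for the interaction, and all 37 genes passed there in the same direction. The 20 neural stem and radial glia markers summed to 9550.0 to 9619 CPM in wild type and 12583 to 12738 CPM in the libraries labelled Chd5-/- at 3 h, and to 8786 to 14243 and 8290.4 to 9819 CPM at 48 h. The 14 microglia and macrophage genes summed to at most 14.8 CPM in any library (Tyrobp at 0 in all 12), and the 11 endothelial genes to at most 13.96 CPM. The sums of other lists also differed at 3 h without overlap. Under the Chd5-/- label the 19 fibroblast and smooth muscle genes summed to 784 to 809.7 CPM, most of it Acta2, against 132 to 171 CPM. The 22 neuronal cytoskeleton and axon genes summed to 3107 to 3229 CPM against 1779 to 1936 CPM, and the sum of the GABAergic genes was higher as well. In the 9 libraries the median 3 h difference of members tested was -0.65 in the fibroblast list, 0.09 in the neuronal list and -0.04 in the GABAergic list. Lower under the label were the astrocyte genes (2901 to 2978 against 3283 to 4009 CPM) and the neural crest genes (150 to 157 against 197 to 258 CPM). The sums of the ependymal, microglia and endothelial lists were lower too. Their median 3 h differences in the 9 libraries were 0.14, -1.8 (2 genes tested) and -1.67. At 48 h the genotypes overlapped in the fibroblast, neuronal and astrocyte lists. In bulk RNA, fewer cells of a type and less RNA per cell cannot be told apart, and the part of cell makeup in the results below was not tested.

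Chd5 itself (ENSMUSG00000005045, chromosome 4, 152338651 to 152390194, GRCm38) was not among the 37. It measured 3.54, 3.93 and 4.66 CPM (wild type) and 5.25, 6.31 and 7.06 CPM (labelled Chd5-/-) at 3 h, and 6.59, 7.15 and 5.28 CPM (wild type) and 5.7, 3.34 and 2.96 CPM (labelled Chd5-/-) at 48 h. Its 3 h values were higher in the libraries labelled Chd5-/- without overlap, and the groups overlapped at 48 h. Its interaction was -1.28 ± 0.44 SE, edgeR adjusted p = 0.348. The level of Chd5 therefore does not show a loss in the libraries labelled Chd5-/-, and the label is used here as deposited.

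The interaction list is short beside those of the single times. The genotype difference passed in 1077 genes at 3 h (6.71% of those tested) and in 440 at 48 h (2.74%), with 256 in both, which is 23.8% of the first list and 58.2% of the second. Of these 256, 251 differed the same way at both times and 5 the opposite way. A further 1005 genes passed at 1 time alone, and only 23 of them passed the interaction (607 had an unadjusted interaction p under 0.05). For the rest of them, a difference between the times was not shown by that test. Across all genes tested, the genotype differences at 3 h and 48 h had a Pearson r of 0.44, as a description over genes, which are not independent replicates. The threshold cuts through a continuous list: Zc3hav1 (interaction -3.70, adjusted p = 0.0451) and Adra1b (3.74, 0.0451) lay just inside it, and Adora1 (-1.57, 0.0509) and Tbx18 (4.80, 0.0511) just outside. All 37 interactions were at least 4-fold, and the smallest was 2.00 on the log2 scale (Ankrd24).

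**Figure D1:**
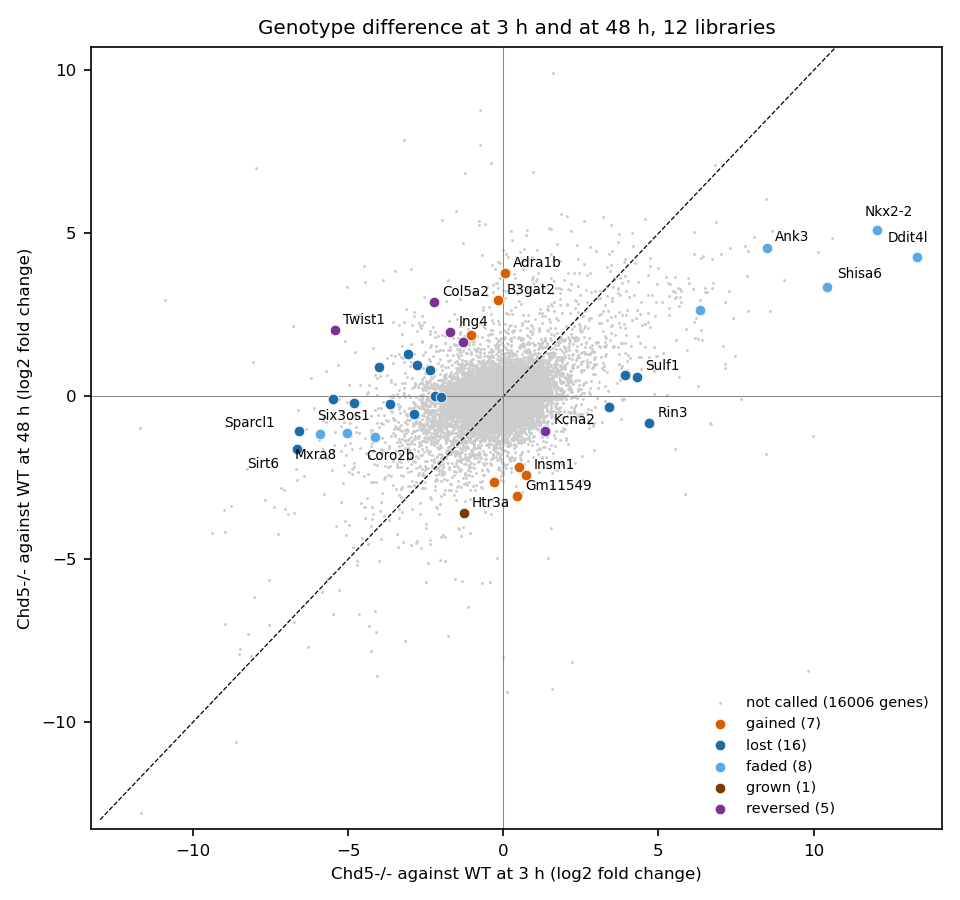
Genotype difference (Chd5-/- against wild type, log2 fold change) at 3 h on the x axis and at 48 h on the y axis for the 16043 genes tested; coloured points are the 37 interaction genes by class and grey points the rest. The dashed line marks an equal difference at both times; the faded genes lie between it and the x axis, the gained genes near the vertical zero line, and the reversed genes in the upper left and lower right quadrants.

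The largest class was that of genes whose genotype difference passed at 3 h alone. Of these 16 lost genes, 12 had a lower 3 h level under the Chd5-/- label (3.48% of all genes tested) and 4 a higher one (3.24%). Sirt6 (ENSMUSG00000034748, chromosome 10, 81621785 to 81627797), which encodes an NAD-dependent deacylase of chromatin, was one of the lower ones. It measured 39.5, 14 and 14.2 CPM (wild type) and 0.168, 0.253 and 0.228 CPM (labelled Chd5-/-) at 3 h, and 24.6, 20.5 and 25.6 CPM (wild type) and 7.86, 7.01 and 8.14 CPM (labelled Chd5-/-) at 48 h. At 3 h every library labelled Chd5-/- was at 0.253 CPM or less, and the highest wild-type value was that of replicate 1, one of the libraries that stood apart. The difference at 3 h was -6.66 ± 0.51 SE, edgeR adjusted p = 6.37e-05, and at 48 h -1.62 ± 0.38 SE, edgeR adjusted p = 0.0511, which just missed the threshold although the groups did not overlap. The interaction was 5.04 ± 0.61 SE, edgeR adjusted p = 0.00572, and without the 3 libraries Sirt6 sorted as faded.

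Ankrd24 (ENSMUSG00000054708, chromosome 10, 81628540 to 81647610), which encodes an ankyrin repeat protein, lies 742 bases from Sirt6 and is read from the opposite strand, so that the starts of the pair face away from each other. It measured 18.3, 12.7 and 14 CPM (wild type) and 3.46, 3.79 and 3.87 CPM (labelled Chd5-/-) at 3 h, and 7.75, 9.04 and 8.97 CPM (wild type) and 9.1, 9.21 and 7.25 CPM (labelled Chd5-/-) at 48 h. Its groups did not overlap at 3 h and overlapped at 48 h. The difference was -2.01 ± 0.24 SE, edgeR adjusted p = 0.000755 at 3 h and -0.01 ± 0.23 SE, edgeR adjusted p = 1 at 48 h, with an interaction of 2.00 ± 0.33 SE, edgeR adjusted p = 0.0442. Within 1 Mb, the only other pair among the 37 was Insm1 and Nkx2-2, which lie 952525 bases apart. The promoters of the pair, 250 bases before to 50 after the start of each gene, are shown because these neighbours moved in the same direction. The sequences are those of RefSeq on GRCm38.p6, chr10:81627517-81627816 (minus strand) for Sirt6 and chr10:81628290-81628589 (plus strand) for Ankrd24, 5′ to 3′ in the direction of each gene, and capitals mark any match to the GC box GGGCGG, the CCAAT box, the TATA box TATAAA or the E-box CACGTG, each searched on both strands.
Sirt6: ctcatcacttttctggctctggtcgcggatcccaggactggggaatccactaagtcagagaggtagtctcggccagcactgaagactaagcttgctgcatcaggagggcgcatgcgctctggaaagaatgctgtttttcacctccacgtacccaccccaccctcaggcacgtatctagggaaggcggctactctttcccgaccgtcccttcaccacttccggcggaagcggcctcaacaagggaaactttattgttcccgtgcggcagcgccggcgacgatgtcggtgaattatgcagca
Ankrd24: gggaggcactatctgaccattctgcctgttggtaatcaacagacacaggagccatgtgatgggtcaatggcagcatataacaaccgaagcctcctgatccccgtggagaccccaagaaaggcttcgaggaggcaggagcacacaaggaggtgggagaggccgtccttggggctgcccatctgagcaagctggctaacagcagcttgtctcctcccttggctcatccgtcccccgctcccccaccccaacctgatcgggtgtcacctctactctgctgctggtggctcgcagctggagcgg
Neither window holds any of the 4 motifs, which 35.6%, 37.4%, 13.6% and 7.1% of 32817 promoters of the same length hold. Sirt6 has 20 CpG in its window and Ankrd24 9, against a median of 7. The RefSeq start of Sirt6 lies inside its gene span given above, from GENCODE M21, so nearly all of its window lies within that span.

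Anxa2, which encodes a calcium-dependent membrane-binding protein, measured 174, 87.4 and 87.1 CPM (wild type) and 2.74, 2.84 and 2.22 CPM (labelled Chd5-/-) at 3 h, and 40.7, 17.3 and 37.1 CPM (wild type) and 31.3, 31.9 and 27.2 CPM (labelled Chd5-/-) at 48 h. It fell with time in wild type and rose in the libraries labelled Chd5-/-, so that the groups were apart at 3 h and overlapped at 48 h. The difference was -5.48 ± 0.43 SE, edgeR adjusted p = 6.62e-05 at 3 h and -0.07 ± 0.35 SE, edgeR adjusted p = 1 at 48 h, and the interaction 5.41 ± 0.54 SE, edgeR adjusted p = 0.00248. Sparcl1, a matricellular protein gene of astrocytes, measured 449.9, 1149.8 and 1131 CPM (wild type) and 10.7, 8.71 and 8.88 CPM (labelled Chd5-/-) at 3 h, and 2243, 3285 and 2242 CPM (wild type) and 1513, 647 and 1509 CPM (labelled Chd5-/-) at 48 h. It rose with time in both genotypes, by 1.51 on the log2 scale in wild type and by 7.02 in the libraries labelled Chd5-/- (edgeR adjusted p = 0.0286 and 7.6e-05). The difference was -6.59 ± 0.53 SE, edgeR adjusted p = 6.69e-05 at 3 h and -1.08 ± 0.42 SE, edgeR adjusted p = 0.297 at 48 h, and the interaction 5.51 ± 0.62 SE, edgeR adjusted p = 0.00476. At 48 h its groups did not overlap, and replicate 2 of both genotypes, libraries that stood apart, lay farthest from the others of its group.

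Eml2, a microtubule-associated protein gene, was the third by interaction p among the lost genes. It measured 5.67, 6.26 and 5.11 CPM (wild type) and 0.335, 0.189 and 0.512 CPM (labelled Chd5-/-) at 3 h, and 6.9, 3.24 and 6.48 CPM (wild type) and 11.7, 8.88 and 10.6 CPM (labelled Chd5-/-) at 48 h. The wild-type level overlapped between the times, while the level in the libraries labelled Chd5-/- rose (4.87 ± 0.44 SE, edgeR adjusted p = 0.00015), and the interaction was 4.91 ± 0.56 SE, edgeR adjusted p = 0.00476. Tns2, which encodes the focal adhesion protein tensin 2, measured 153, 112 and 105 CPM (wild type) and 25.3, 27.8 and 26.4 CPM (labelled Chd5-/-) at 3 h, and 144, 120.3 and 145 CPM (wild type) and 151, 117 and 142 CPM (labelled Chd5-/-) at 48 h. Here the genotypes differed at 3 h (-2.22 ± 0.22 SE, edgeR adjusted p = 0.000229) and their means were 137 and 137 CPM at 48 h. The interaction was 2.22 ± 0.30 SE, edgeR adjusted p = 0.0133.

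The other lost genes that started lower code for proteins of several kinds. They were Grid1, a delta-type glutamate receptor, C1qtnf6, a secreted protein with a C1q domain, Ndn, an imprinted gene whose product necdin restrains growth, Rtl5, a retrotransposon-derived gene on chromosome X, Tmem71, a membrane protein, and Zfp345, a zinc finger protein. Ndn measured 62.6, 41.9 and 40.5 CPM (wild type) and 5.42, 6.5 and 7.57 CPM (labelled Chd5-/-) at 3 h, and 44.8, 39.5 and 43.3 CPM (wild type) and 32.9, 21.4 and 33.9 CPM (labelled Chd5-/-) at 48 h. Grid1 rose with time in both genotypes, from 4.85 ± 0.703 to 21.7 ± 5 CPM in wild type and from 0.936 ± 0.0378 to 37.9 ± 13.4 CPM under the Chd5-/- label (mean ± SD over 3 libraries). In the libraries labelled Chd5-/-, C1qtnf6 was at 6.2 ± 1.08 CPM at 3 h and 104 ± 4.24 CPM at 48 h, with 42.5 ± 28.2 and 52.8 ± 9.2 CPM in wild type. In wild type, Rtl5 went from 5.47 ± 2.11 to 14.8 ± 1.12 CPM, and under the Chd5-/- label from 0.436 ± 0.169 to 12.7 ± 0.956 CPM. Tmem71 went from 0.875 ± 0.231 to 0.514 ± 0.0523 CPM in wild type, and from 0.0983 ± 0.0366 to 1.27 ± 0.591 CPM under the label. In all 5 the low point was the 3 h group labelled Chd5-/-. Their interactions lay between 2.36 (Ndn) and 4.37 (Tmem71). Zfp345 had 3 reads in all in the 3 h libraries labelled Chd5-/- and 90 in wild type, a ratio of 31.1 with a 95% Poisson interval of 10.6 to 151, and its interaction passed at an adjusted p of 0.0267. Intervals and floors on reads cover counting error only, since these reads carry no molecular identifiers.

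The 4 lost genes that were higher at 3 h were Sulf1, Rin3, Scarf2 and Abcg4. Sulf1 encodes an extracellular enzyme that removes sulfate from heparan sulfate, the chains to which growth factors such as FGF2 bind. It measured 0.405, 0.399 and 0.499 CPM (wild type) and 8.61, 8.97 and 8.54 CPM (labelled Chd5-/-) at 3 h, and 1.28, 0.674 and 0.852 CPM (wild type) and 1.42, 1.34 and 1.51 CPM (labelled Chd5-/-) at 48 h. The 3 h libraries labelled Chd5-/- were the highest of the 12, and the interaction was -3.69 ± 0.45 SE, edgeR adjusted p = 0.00611. Scarf2, a scavenger receptor gene, fell with time in the libraries labelled Chd5-/- from 22.2 ± 1.8 to 7.46 ± 1.18 CPM and rose in wild type from 2.13 ± 1.31 to 9.35 ± 2.27 CPM, with an interaction of -3.73 ± 0.55 SE, edgeR adjusted p = 0.0221. Rin3, an exchange factor for the small GTPase Rab5, moved in the same directions at a lower level, from 5.37 ± 0.662 to 0.428 ± 0.0919 CPM in the libraries labelled Chd5-/- and from 0.199 ± 0.0869 to 0.752 ± 0.463 CPM in wild type. Abcg4, a sterol transporter gene, rose in wild type (2.89 ± 0.36 SE, edgeR adjusted p = 0.00159). In the libraries labelled Chd5-/- its change did not pass (-0.39 ± 0.32 SE, edgeR adjusted p = 0.414), and the interaction was -3.28 ± 0.48 SE, edgeR adjusted p = 0.0221.

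The 8 faded genes kept their genotype difference to 48 h at a smaller size. Mxra8 (ENSMUSG00000029070, chromosome 4, 155839680 to 155844088) had the smallest interaction p of all genes. It encodes an immunoglobulin-domain protein of the cell surface that some alphaviruses use as a receptor. It measured 91, 67.3 and 71.8 CPM (wild type) and 1.29, 1.14 and 1.37 CPM (labelled Chd5-/-) at 3 h, and 214, 166 and 218 CPM (wild type) and 101, 67.6 and 101 CPM (labelled Chd5-/-) at 48 h. The level in the libraries labelled Chd5-/- was below that in wild type at both times without overlap. The difference fell in size from -5.91 ± 0.29 SE, edgeR adjusted p = 7.41e-06 at 3 h to -1.15 ± 0.23 SE, edgeR adjusted p = 0.0235 at 48 h, and the interaction was 4.76 ± 0.35 SE, edgeR adjusted p = 0.000509. Mxra8 lies 3.45 Mb from Chd5 on chromosome 4 and was the only interaction gene within 10 Mb of it (1 of 37, or 2.7%, against 154 or 0.96% of the genes tested).

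Six3os1, a noncoding RNA gene beside the forebrain transcription factor gene Six3, measured 45.1, 64.1 and 66.2 CPM (wild type) and 2.01, 1.64 and 1.59 CPM (labelled Chd5-/-) at 3 h, and 105, 100.4 and 109.5 CPM (wild type) and 54.2, 35.1 and 55 CPM (labelled Chd5-/-) at 48 h. Its groups did not overlap at either time, and the interaction was 3.93 ± 0.35 SE, edgeR adjusted p = 0.00199. Six3 measured 45, 55.3 and 53.8 CPM (wild type) and 6.99, 4.48 and 6.54 CPM (labelled Chd5-/-) at 3 h, and 38.5, 37.9 and 35.4 CPM (wild type) and 13.5, 15.8 and 14.6 CPM (labelled Chd5-/-) at 48 h, with an interaction of 1.74 ± 0.31 SE, edgeR adjusted p = 0.0519 that just missed the threshold. The 2 genes share exonic bases on opposite strands, and whether the read counting used strand is not given in the sources used here, so reads of one could have been counted for the other. Coro2b, which encodes an actin-binding coronin, measured 177, 130.0 and 136 CPM (wild type) and 8.61, 8.9 and 7.4 CPM (labelled Chd5-/-) at 3 h, and 124, 142 and 123 CPM (wild type) and 62.4, 41.1 and 60.7 CPM (labelled Chd5-/-) at 48 h. Wild type overlapped between the times, and the level rose in the libraries labelled Chd5-/- (2.72 ± 0.24 SE, edgeR adjusted p = 0.00012), and the interaction was 2.91 ± 0.32 SE, edgeR adjusted p = 0.00476.

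The other 5 faded genes were higher in the libraries labelled Chd5-/- at both times and at 0.608 CPM or less in every wild-type library at 3 h. Ddit4l (ENSMUSG00000046818, chromosome 3, 137621612 to 137628333), whose product inhibits the growth kinase mTOR, measured 0, 0 and 0.0555 CPM (wild type) and 305, 309 and 305 CPM (labelled Chd5-/-) at 3 h, and 3.18, 1.01 and 2.56 CPM (wild type) and 33.4, 60.6 and 37 CPM (labelled Chd5-/-) at 48 h. Wild type had 1 read in all at 3 h against 15709, a ratio of 13923 with a 95% Poisson interval of 2499 to 549932. The level fell 48 h into differentiation in the libraries labelled Chd5-/- (-2.81 ± 0.42 SE, edgeR adjusted p = 0.00159) and reached 112 reads in wild type, where the ratio of the groups was much smaller (4.27 ± 0.46 SE, edgeR adjusted p = 0.000947). The interaction passed at an adjusted p of 0.00199. No fitted interaction is given for it or for the other 4 genes with 3 or fewer reads in a group, since such a value depends on the prior count. The promoters of Ddit4l and Mxra8 are shown because Ddit4l had the highest level of the faded genes that were higher and Mxra8 the smallest interaction p. They come from RefSeq on GRCm38.p6, plus strand, at chr3:137623422-137623721 and chr4:155839430-155839729, with capitals as above. The RefSeq start of Ddit4l lies inside the gene span given above, which is that of GENCODE M21.
Ddit4l: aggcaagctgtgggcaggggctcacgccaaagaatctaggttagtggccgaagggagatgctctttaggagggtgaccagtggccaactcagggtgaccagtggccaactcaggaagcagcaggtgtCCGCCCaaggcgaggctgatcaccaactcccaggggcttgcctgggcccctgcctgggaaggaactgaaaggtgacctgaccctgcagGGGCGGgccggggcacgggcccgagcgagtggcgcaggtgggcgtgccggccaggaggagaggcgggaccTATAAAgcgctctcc
Mxra8: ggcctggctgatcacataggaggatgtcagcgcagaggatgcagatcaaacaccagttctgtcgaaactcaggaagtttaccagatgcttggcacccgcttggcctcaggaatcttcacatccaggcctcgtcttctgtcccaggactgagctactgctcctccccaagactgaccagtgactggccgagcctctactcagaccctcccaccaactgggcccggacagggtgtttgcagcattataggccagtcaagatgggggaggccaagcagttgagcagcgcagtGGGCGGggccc
The Ddit4l window holds GGGCGG on both strands and 1 TATAAA, with 14 CpG. The Mxra8 window holds 1 GGGCGG and 8 CpG. A match is a run of letters and not a measured binding site.

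Nkx2-2, a transcription factor gene of ventral progenitors and of oligodendrocytes, measured 0, 0 and 0 CPM (wild type) and 31.7, 31.1 and 35.5 CPM (labelled Chd5-/-) at 3 h, and 0.366, 0.337 and 0.284 CPM (wild type) and 11.8, 13.5 and 9.02 CPM (labelled Chd5-/-) at 48 h. Against the floor of 3 reads over the wild-type group at 3 h, it was at least 496-fold higher in the libraries labelled Chd5-/-. At 48 h the difference was 5.09 ± 0.31 SE, edgeR adjusted p = 9.23e-05, and the interaction passed at an adjusted p of 0.00476. Shisa6, an auxiliary subunit gene of AMPA-type glutamate receptors, had 1 read in wild type at 3 h, a ratio of 1923 (interval 345 to 75953). It fell from 42.3 ± 2.22 to 2.58 ± 1.93 CPM in the libraries labelled Chd5-/-.

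Ank3, which encodes ankyrin-G, the scaffold of the axon initial segment, measured 0.203, 0.171 and 0.388 CPM (wild type) and 94.1, 93.2 and 103 CPM (labelled Chd5-/-) at 3 h, and 1.16, 0.539 and 0.795 CPM (wild type) and 14.7, 31.8 and 13.1 CPM (labelled Chd5-/-) at 48 h. Zc3hav1, which encodes the antiviral zinc finger protein ZAP, measured 0.608, 0.456 and 0.555 CPM (wild type) and 40, 43.4 and 49.1 CPM (labelled Chd5-/-) at 3 h, and 2.02, 2.56 and 2.22 CPM (wild type) and 8.17, 26.2 and 8.52 CPM (labelled Chd5-/-) at 48 h. In both genes replicate 2 labelled Chd5-/- at 48 h, a library that stood apart, was the highest of its group. The interactions were -3.94 ± 0.63 SE, edgeR adjusted p = 0.0364, and -3.70 ± 0.62 SE, edgeR adjusted p = 0.0451. Without those 3 libraries they were -4.55 and -4.44. All 8 faded genes sorted as faded without them as well.

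Among the 7 gained genes, at 48 h 3 were higher than wild type (1.53% of all genes tested) and 4 lower (1.21%). B3gat2 (ENSMUSG00000026156, chromosome 1, 23761753 to 23849158), a glucuronyltransferase gene of the HNK-1 carbohydrate carried by neural adhesion molecules, measured 0.709, 0.854 and 0.666 CPM (wild type) and 0.782, 0.631 and 0.569 CPM (labelled Chd5-/-) at 3 h, and 2.56, 2.36 and 2.61 CPM (wild type) and 19.9, 19.9 and 18.9 CPM (labelled Chd5-/-) at 48 h. The groups overlapped at 3 h and were far apart at 48 h, and the level rose with time in both genotypes. The difference was -0.17 ± 0.27 SE, edgeR adjusted p = 0.786 at 3 h and 2.96 ± 0.25 SE, edgeR adjusted p = 0.000162 at 48 h, with an interaction of 3.13 ± 0.36 SE, edgeR adjusted p = 0.00481. B3gat2 shares exonic bases with Smap1 on the opposite strand, so the same doubt on strand applies. Adra1b, the alpha-1B adrenergic receptor gene, measured 0.506, 0.171 and 0.388 CPM (wild type) and 0.224, 0.505 and 0.341 CPM (labelled Chd5-/-) at 3 h, and 0.427, 0.405 and 0.568 CPM (wild type) and 6.07, 6.68 and 6.88 CPM (labelled Chd5-/-) at 48 h. It was low in every library but those labelled Chd5-/- at 48 h, and the interaction was 3.74 ± 0.63 SE, edgeR adjusted p = 0.0451. Plppr1, whose product promotes the outgrowth of neurites, rose in the libraries labelled Chd5-/- from 0.565 ± 0.108 to 6.02 ± 0.0825 CPM, with 1.15 ± 0.424 and 1.63 ± 0.161 CPM in wild type.

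Insm1, which encodes a zinc finger transcription factor of neurogenic progenitors, measured 6.68, 18.6 and 18.9 CPM (wild type) and 24, 22.3 and 26.5 CPM (labelled Chd5-/-) at 3 h, and 13.6, 11.5 and 14.5 CPM (wild type) and 2.6, 1.87 and 2.9 CPM (labelled Chd5-/-) at 48 h. In wild type the change with time did not pass (-0.17 ± 0.35 SE, edgeR adjusted p = 0.76), and replicate 1 at 3 h, a library that stood apart, was the lowest. The level fell in the libraries labelled Chd5-/- (-3.30 ± 0.39 SE, edgeR adjusted p = 0.000541). The interaction was -3.13 ± 0.52 SE, edgeR adjusted p = 0.0418. Dchs1, a large cadherin that pairs with Fat4, measured 25, 37.3 and 37.5 CPM (wild type) and 24.5, 27 and 29.5 CPM (labelled Chd5-/-) at 3 h, and 183, 179 and 174 CPM (wild type) and 30.8, 19.8 and 35.3 CPM (labelled Chd5-/-) at 48 h. Here wild type rose (2.42 ± 0.26 SE, edgeR adjusted p = 0.000891) and the libraries labelled Chd5-/- did not pass (0.09 ± 0.25 SE, edgeR adjusted p = 0.839). The interaction was -2.34 ± 0.36 SE, edgeR adjusted p = 0.0277. Sel1l3 fell with time in the libraries labelled Chd5-/- from 317 ± 8.46 to 58.3 ± 1.18 CPM, with 224 ± 95.3 and 263 ± 39.3 CPM in wild type. Gm11549, which carries a placeholder name, fell from 9.3 ± 0.664 to 1.09 ± 0.213 CPM, with 6.82 ± 3.37 and 9.18 ± 2.59 CPM in wild type.

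Htr3a, which encodes a serotonin-gated ion channel, was the 1 grown gene. It measured 138, 102 and 95.2 CPM (wild type) and 48.1, 43.4 and 46.6 CPM (labelled Chd5-/-) at 3 h, and 113, 131 and 119.5 CPM (wild type) and 12.3, 8.88 and 9.02 CPM (labelled Chd5-/-) at 48 h. The libraries labelled Chd5-/- lay below wild type at both times, with a difference of -1.28 ± 0.22 SE at 3 h and -3.59 ± 0.24 SE at 48 h on the log2 scale. The wild-type level overlapped between the times, and the interaction was -2.31 ± 0.31 SE, edgeR adjusted p = 0.0118.

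**Figure D2:**
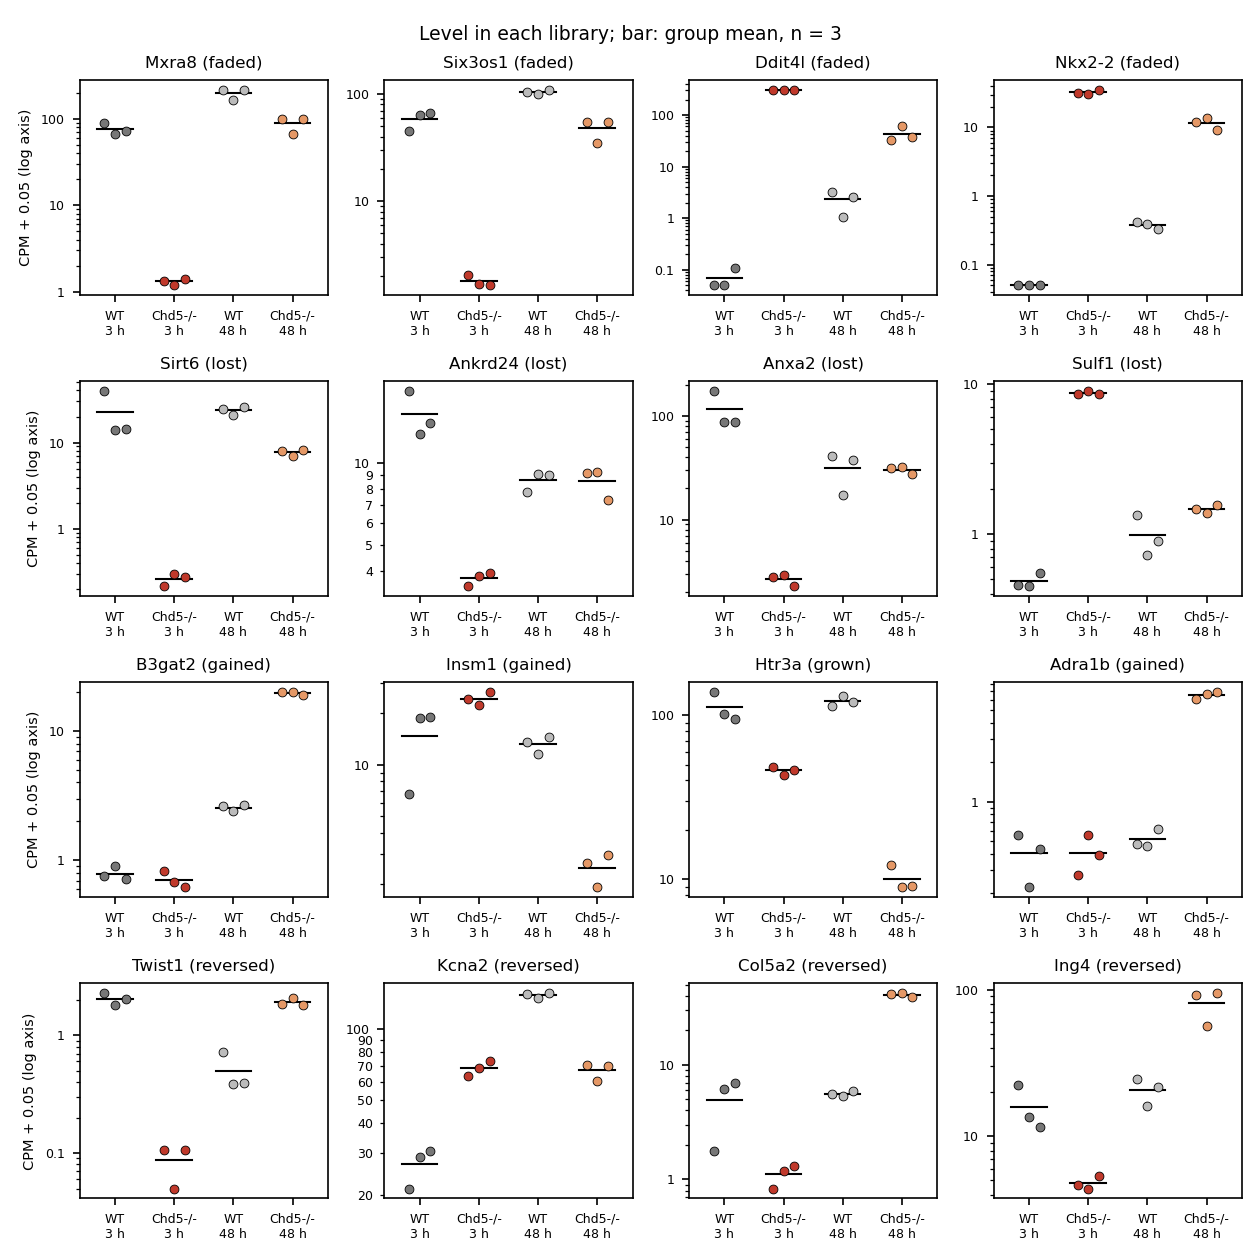
Level of 16 interaction genes in each of the 12 libraries, as CPM + 0.05 on a log axis, with replicates 1, 2 and 3 from left to right in each group and a bar at the group mean (n = 3). Mxra8, Six3os1, Sirt6 and Anxa2 are lowest in the 3 h libraries labelled Chd5-/-, Ddit4l, Nkx2-2 and Sulf1 are highest there, and B3gat2 and Adra1b are highest in the 48 h libraries labelled Chd5-/-.

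The 5 reversed genes differed at both times in opposite directions. Twist1, a transcription factor gene of mesenchyme, had 2 reads in the 3 h libraries labelled Chd5-/- against 89 in wild type, a ratio of 51.2 (interval 14.2 to 423). At 48 h it was higher in them (2.02 ± 0.44 SE, edgeR adjusted p = 0.0349). It measured 2.23, 1.77 and 2 CPM (wild type) and 0.0559, 0 and 0.0569 CPM (labelled Chd5-/-) at 3 h, and 0.672, 0.337 and 0.341 CPM (wild type) and 1.8, 2 and 1.77 CPM (labelled Chd5-/-) at 48 h. The wild-type level fell and the other rose, with all levels at or under 2.23 CPM, and the interaction passed at an adjusted p of 0.00248. Col5a2, a fibrillar collagen gene, measured 1.72, 6.15 and 6.88 CPM (wild type) and 0.782, 1.14 and 1.25 CPM (labelled Chd5-/-) at 3 h, and 5.56, 5.26 and 5.79 CPM (wild type) and 41.7, 42.1 and 38.7 CPM (labelled Chd5-/-) at 48 h. Its level under the Chd5-/- label was below wild type at 3 h (-2.23 ± 0.44 SE, edgeR adjusted p = 0.0125) and above it at 48 h (2.88 ± 0.42 SE, edgeR adjusted p = 0.00552), with an interaction of 5.11 ± 0.61 SE, edgeR adjusted p = 0.00572.

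Ing4, whose product reads trimethylated lysine 4 of histone H3, measured 22.2, 13.5 and 11.6 CPM (wild type) and 4.64, 4.36 and 5.29 CPM (labelled Chd5-/-) at 3 h, and 24.4, 16 and 21.5 CPM (wild type) and 92.4, 56.7 and 94.6 CPM (labelled Chd5-/-) at 48 h. The Chd5-/- label went with the lower level at 3 h and the higher one at 48 h, without overlap at either time, and the interaction was 3.69 ± 0.44 SE, edgeR adjusted p = 0.00572. Ing4 shares exonic bases with Gm44597 on the same strand, so reads could have been split between them. Lrrtm1, a synaptic adhesion protein gene, went the same way at a lower level, from 0.666 ± 0.0794 to 7.08 ± 0.356 CPM against 1.67 ± 0.223 and 2.24 ± 0.81 CPM in wild type. Kcna2, a voltage-gated potassium channel gene of axons, was the only one of the 5 that went from higher to lower. It measured 21.2, 28.8 and 30.6 CPM (wild type) and 63.6, 68.6 and 73.4 CPM (labelled Chd5-/-) at 3 h, and 141, 135 and 142 CPM (wild type) and 70.3, 60.6 and 69.9 CPM (labelled Chd5-/-) at 48 h. The wild-type level rose (2.38 ± 0.20 SE, edgeR adjusted p = 0.000362), and the level in the libraries labelled Chd5-/- overlapped between the times (-0.03 ± 0.19 SE, edgeR adjusted p = 0.924).

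Sorted by the change with time instead, the 37 genes moved mostly in the libraries labelled Chd5-/-. The change from 3 h to 48 h passed in 34 of the 37 in these libraries (22.1% of all genes tested passed) and in 19 in wild type (22.9% passed). It went up in 22 and down in 12 in the former (14.1% and 8.03% of all genes), and up in 16 and down in 3 in wild type (12.7% and 10.1%). In 13 genes the level rose in the libraries labelled Chd5-/- and did not pass in wild type, and in 5 it fell in the former and did not pass in the latter. The reverse, a rise in wild type with no passing change in the libraries labelled Chd5-/-, was found in 3 (Dchs1, Abcg4 and Kcna2). The genotypes moved in opposite directions in 10 genes: wild type fell while the other rose in Anxa2, Ankrd24 and Twist1, and wild type rose while the other fell in 7 (Sulf1, Rin3, Scarf2, Ddit4l, Nkx2-2, Ank3 and Zc3hav1). In the remaining 6 both rose. These counts share libraries with the interaction that chose the genes and so describe it.

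The group that stood farthest from the mean of the other 3, by log2(CPM + 0.5), was Chd5-/- at 3 h for 23 of the 37 genes, against 30.7% of all genes tested. It was Chd5-/- at 48 h for 10 (16.6% of all), wild type at 3 h for 3 (37% of all) and wild type at 48 h for 1 (15.7% of all). The wild-type group at 3 h holds a library that stood apart and the Chd5-/- group at 3 h does not, and the part of this in these shares was not tested.

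**Figure D3:**
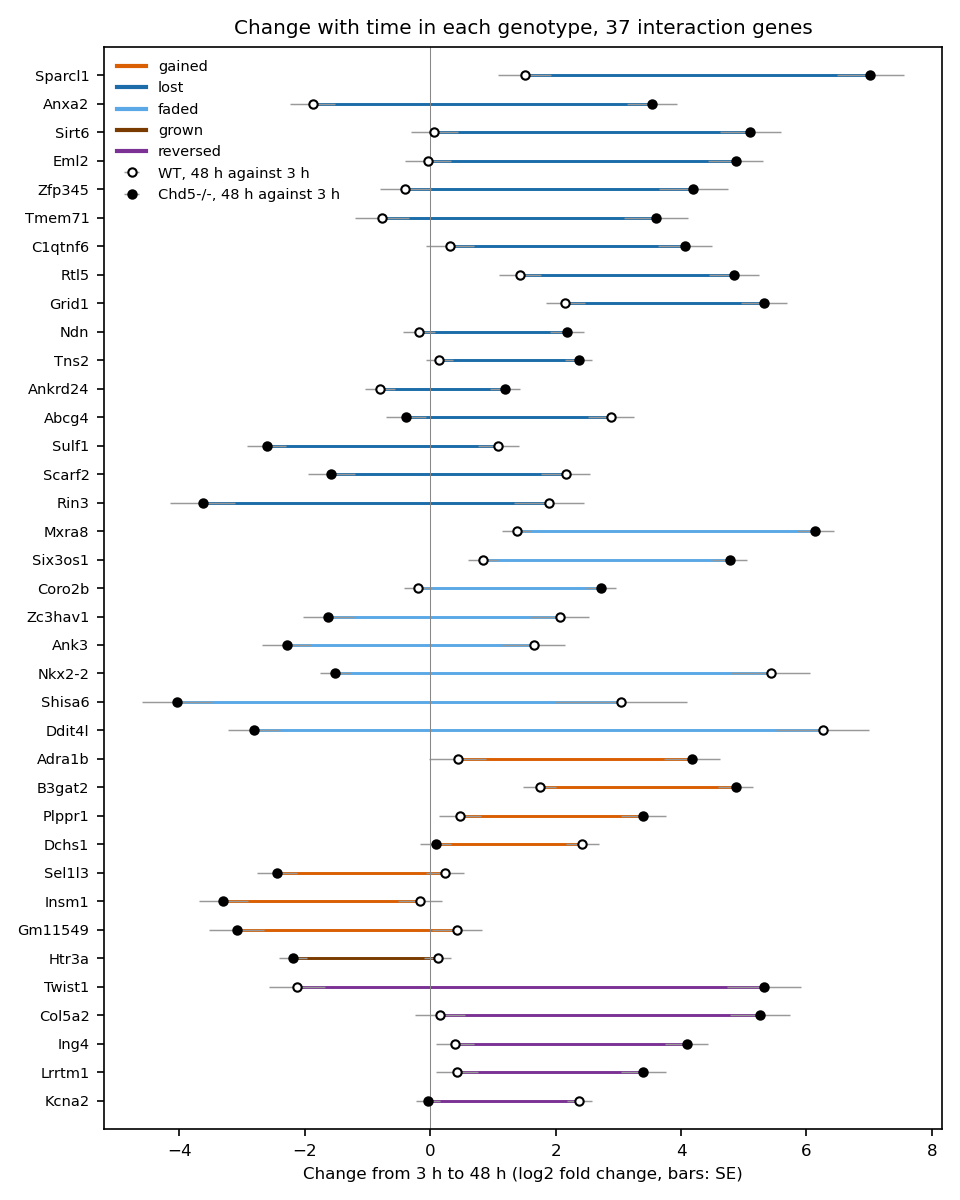
Change from 3 h to 48 h (log2 fold change, bars: SE, n = 3 libraries per group) in wild type (open points) and in Chd5-/- (filled points) for the 37 interaction genes, joined by a line coloured by class. Most filled points lie right of 0, 22 passing upward and 12 downward, while 18 open points did not pass; points of the 5 genes with 3 or fewer reads in a group depend on the prior count.

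Which genes passed depended on which libraries were fitted. With 1 library left out in turn, 15 of the 37 passed in all 12 fits: B3gat2, the lost genes Anxa2, Sparcl1, Eml2, Sirt6 and Sulf1, the faded genes Mxra8, Six3os1, Ddit4l, Coro2b and Nkx2-2, and the reversed genes Twist1, Kcna2, Col5a2 and Ing4 (largest edgeR adjusted p 0.0397). Leaving out any of the 9 libraries that did not stand apart left between 15 and 19 of the 37 called, and the 22 genes that lost their call had a largest adjusted p between 0.0698 and 0.194. Leaving out 1 that stood apart kept 37 (wild type 3 h replicate 1), 36 (wild type 48 h replicate 2, without Zc3hav1) and 35 (Chd5-/- 48 h replicate 2, without Sel1l3 and Insm1), and called 310, 108 and 99 genes in all. With an offset for transcript length, 12 lost their call (Sel1l3, Plppr1, Gm11549, Adra1b, Sulf1, Tns2, Scarf2, Abcg4, Ankrd24, Ank3, Zc3hav1 and Lrrtm1, adjusted p 0.0508 to 0.184). With a replicate block within each time, 33 genes passed and 17 of the 37 were among them: B3gat2, the lost genes Anxa2, Eml2, Sirt6, Sulf1, Tns2, Grid1 and Rtl5, the faded genes Mxra8, Six3os1, Ddit4l, Coro2b and Zc3hav1, and the reversed genes Twist1, Kcna2, Col5a2 and Ing4. All 37 kept their direction under each of the 23 alternatives. These refits use the libraries that chose the genes, so a kept direction is not an independent check.

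**Figure D4:**
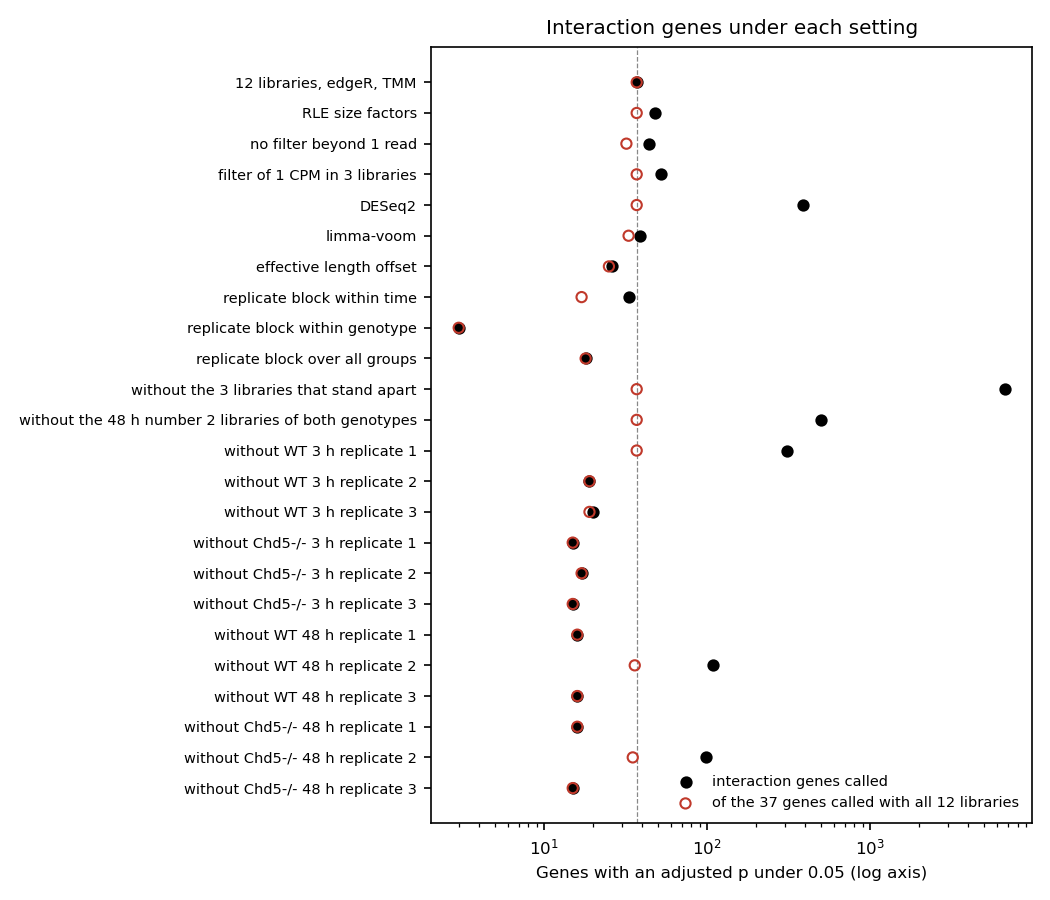
Number of interaction genes called (filled points, log axis) under each setting, and how many of the 37 genes of the 12-library fit were among them (open points). Counts run from 3 with a replicate block within genotype to 6669 without the 3 libraries that stood apart.

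Without the 3 libraries, the interaction was higher in 3187 genes (19.3% of 16489) and lower in 3482 (21.1%). The genotype difference passed in 52.5% of genes at 3 h and 47.2% at 48 h. The median SE of the interaction was 0.13 in that fit and 0.62 with all 12, and the 9-library fit rests on 2 or 3 libraries per group, pairs of which had a chi-square per gene of 1.83 to 5.53. Of the 6669 genes, 1963 sorted as lost (29.4%), 1617 as gained (24.2%), 1259 as reversed (18.9%), 1101 as faded (16.5%), 583 as grown (8.7%) and 146 in none of these, with neither time passing (2.2%). The interaction was at least 2-fold in 1857 of them. Of the 16 lost genes of the 12-library fit, 6 sorted as lost again, 5 as faded and 5 as reversed. Of the 7 gained genes, 3 sorted as gained, 1 as grown and 3 as reversed. The faded, grown and reversed genes all kept their class.

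From each class of the 9-library fit, the eligible genes with the smallest interaction p are named. Eligible genes had at least 5 CPM in their highest group, were autosomal, and were neither pseudogenes nor genes with placeholder names. Of the eligible lost genes, Mrc2, an endocytic receptor for collagen, and Sema5b, a semaphorin gene, had the smallest interaction p. Mrc2 measured 139.9, 117 and 115 CPM (wild type) and 4.25, 3.54 and 4.21 CPM (labelled Chd5-/-) at 3 h, and 23.9, 186 and 20.6 CPM (wild type) and 20.6, 46.3 and 18.6 CPM (labelled Chd5-/-) at 48 h, and the difference in the 9 libraries was -4.85 at 3 h and -0.17 at 48 h. Replicate 2 of each genotype at 48 h lay far above the others of its group. Sema5b (-2.61 at 3 h and 0.11 at 48 h), Ak1, an adenylate kinase gene (2.37 at 3 h and 0.02 at 48 h), and Tns2 also sorted as lost. Faded genes, beside Mxra8 and Sparcl1, were Anxa6, a membrane-binding annexin (5.11 at 3 h and 1.85 at 48 h), and Emp1, an epithelial membrane protein gene (-5.37 at 3 h and -1.16 at 48 h).

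Gjc3, a connexin gene of glia, led the eligible reversed genes. It measured 33.2, 64.3 and 64.3 CPM (wild type) and 6.54, 5.68 and 6.32 CPM (labelled Chd5-/-) at 3 h, and 307, 81.9 and 307 CPM (wild type) and 422, 197 and 430.4 CPM (labelled Chd5-/-) at 48 h, and the difference in the 9 libraries was -3.37 at 3 h and 0.49 at 48 h. The collagen gene Col11a1 (-2.71 at 3 h and 1.08 at 48 h) and the immediate early transcription factor gene Egr1 (-1.23 at 3 h and 0.60 at 48 h) went the same way, and the phospholipase gene Plcd4 the other way (1.45 at 3 h and -0.60 at 48 h). The grown genes named here were all lower in the libraries labelled Chd5-/-. They were Adm, which encodes the peptide adrenomedullin (-0.39 at 3 h and -3.34 at 48 h), Cd109, a co-receptor for transforming growth factor beta (-0.39 at 3 h and -2.80 at 48 h), Fbln2, an extracellular matrix fibulin (-0.88 at 3 h and -2.73 at 48 h), and Igfbp3, a binding protein for insulin-like growth factors (-0.08 at 3 h and -1.38 at 48 h). Gained genes were Apba2 (-0.10 at 3 h and -1.37 at 48 h), Plk2, a polo-like kinase gene (-0.06 at 3 h and -1.20 at 48 h), Mthfd1l, an enzyme of mitochondrial folate metabolism (-0.03 at 3 h and -1.70 at 48 h), and Specc1 (0.07 at 3 h and 1.00 at 48 h). The genes named here that sorted into no class, with neither time passing, were Arhgap21, Crls1, Lyrm4 and Map3k13, with interactions between -0.69 and 0.52. With all 12 libraries none of these genes but Tns2, Mxra8 and Sparcl1 passed (adjusted p 0.0647 to 0.908).

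Among 34 gene lists, the 12-library fit called at most 1 member of any: Ddit4l of the p53 target genes, Insm1 of the proneural genes, Ank3 of the neuronal cytoskeleton genes, Nkx2-2 of the oligodendrocyte genes, Sparcl1 of the astrocyte genes and Twist1 of the fibroblast and smooth muscle genes. The other lists had none (edgeR; DESeq2 called at most 6 in a list, and the number of members at an unadjusted p under 0.05 ran from 0 to 13). The p53 target genes, which a DNA damage response turns on, had the lowest median interaction of the lists in the 9 libraries. The mean log2(CPM + 1) of the 24 members tested was 4.26 to 4.31 in wild type and 6.37 in all 3 libraries labelled Chd5-/- at 3 h, and 4.16 to 4.33 and 5.13 to 5.34 at 48 h. The genotype groups did not overlap at either time, with the 3 libraries that stood apart included. With 12 libraries the median interaction of the list was -1.11 (-0.03 over all genes tested) and 13 of 24 had an unadjusted p under 0.05, against 1610 of the 16043 genes tested. In the 9 libraries all 24 passed (40.4% of all genes), 3 higher and 21 lower, with a median of -1.22 (0 over all genes), and 19 sorted as faded.

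Within that list, Ccng1, which encodes cyclin G1, measured 8.81, 19.5 and 20.1 CPM (wild type) and 306, 316 and 321 CPM (labelled Chd5-/-) at 3 h, and 28.5, 7.15 and 28.4 CPM (wild type) and 119.7, 99.3 and 119 CPM (labelled Chd5-/-) at 48 h. Its interaction was -1.88 ± 0.65 SE, edgeR adjusted p = 0.352, with the wild-type values of replicate 1 at 3 h and replicate 2 at 48 h below the others of their group. In the 9 libraries it was -1.91 ± 0.07 SE (adjusted p = 4.49e-10). Cdkn1a, which encodes the cell cycle inhibitor p21, measured 61.8, 42.4 and 43.3 CPM (wild type) and 709, 687 and 691 CPM (labelled Chd5-/-) at 3 h, and 8.91, 15.2 and 9.71 CPM (wild type) and 106, 153 and 114 CPM (labelled Chd5-/-) at 48 h. It was higher in every library labelled Chd5-/- than in any of wild type at the same time. The interaction was -0.36 ± 0.37 SE, edgeR adjusted p = 0.738 with 12 libraries, and -0.45 ± 0.09 SE, edgeR adjusted p = 0.00117 with 9. Plk2 was the 1 gained member of the list in the 9 libraries.

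Lineage lists were counted in the 9 libraries, where 19.3% of all genes tested had a higher and 21.1% a lower interaction, the median was 0 and 1259 of 16489 sorted as reversed. The mean log2(CPM + 1) of the 21 astrocyte genes was 5.96 to 6.09 in wild type and 5.34 to 5.42 in the libraries labelled Chd5-/- at 3 h. At 48 h it was 6.52 to 7.95 and 6.80 to 8.17, with replicate 2 lowest in both genotypes. In the 9 libraries 14 members had a higher and 3 a lower interaction (median 0.46), and 7 sorted as reversed. Gja1, the astrocyte connexin gene, measured 5.77, 31 and 31.2 CPM (wild type) and 3.86, 4.42 and 3.13 CPM (labelled Chd5-/-) at 3 h, and 119.9, 67.8 and 118 CPM (wild type) and 162, 34.9 and 157 CPM (labelled Chd5-/-) at 48 h, with a difference in the 9 libraries of -3.03 at 3 h and 0.43 at 48 h.

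The 17 proneural and neurogenic genes had 3 higher and 10 lower interactions in the 9 libraries (19.3% and 21.1% of all genes tested), with a median of -1.01. Their mean log2(CPM + 1) was 3.04 to 3.38 in wild type and 3.40 to 3.44 in the libraries labelled Chd5-/- at 3 h, and 3.42 to 4.52 and 3.09 to 3.87 at 48 h. Of the 16 oligodendrocyte lineage genes, 9 were higher and 5 lower, beside the same shares of all genes. Pdgfra, the receptor gene of oligodendrocyte precursors, measured 0.304, 2.28 and 1.22 CPM (wild type) and 1.34, 1.45 and 1.37 CPM (labelled Chd5-/-) at 3 h, and 8, 4.92 and 8.41 CPM (wild type) and 53.9, 21.3 and 50.8 CPM (labelled Chd5-/-) at 48 h, with a difference of -0.33 at 3 h and 2.69 at 48 h in the 9 libraries. Cspg4, which encodes NG2 of the same cells, had a difference of -0.19 at 3 h and 1.69 at 48 h. Olig2, a transcription factor gene of the whole lineage, had a difference of 0.62 at 3 h and -0.35 at 48 h. Of the 18 stem cell markers tested, 6 were higher and 8 lower (median -0.07).

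Signalling lists are read against the same background of 19.3% higher and 21.1% lower. Of the 23 growth factor feedback and immediate early genes, 12 were higher and 10 lower in the 9 libraries, 10 of them reversed. Of the 24 genes of the ATF4 response to amino acid and protein stress, 2 were higher and 14 lower (median -0.54). Psat1, an enzyme of serine synthesis in this list, measured 429, 561 and 539 CPM (wild type) and 879, 886 and 865 CPM (labelled Chd5-/-) at 3 h, and 547, 552 and 549 CPM (wild type) and 287, 757 and 285 CPM (labelled Chd5-/-) at 48 h, with replicate 2 labelled Chd5-/- at 48 h above the others of its group, and sorted as reversed in the 9 libraries (0.67 at 3 h and -0.92 at 48 h). The interferon response and antigen presentation genes had 15 higher and 1 lower of 22. Their mean log2(CPM + 1) was 5.95 in replicate 2 labelled Chd5-/- at 48 h against 3.37 and 3.35 in replicates 1 and 3, and the median interaction was 2.19 with 12 libraries and 0.75 without the 3. Mitosis and DNA replication genes, which separate replicate 2 from the others at 48 h, had medians of -0.14 and 0.15 in the 9 libraries.

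**Figure D5:**
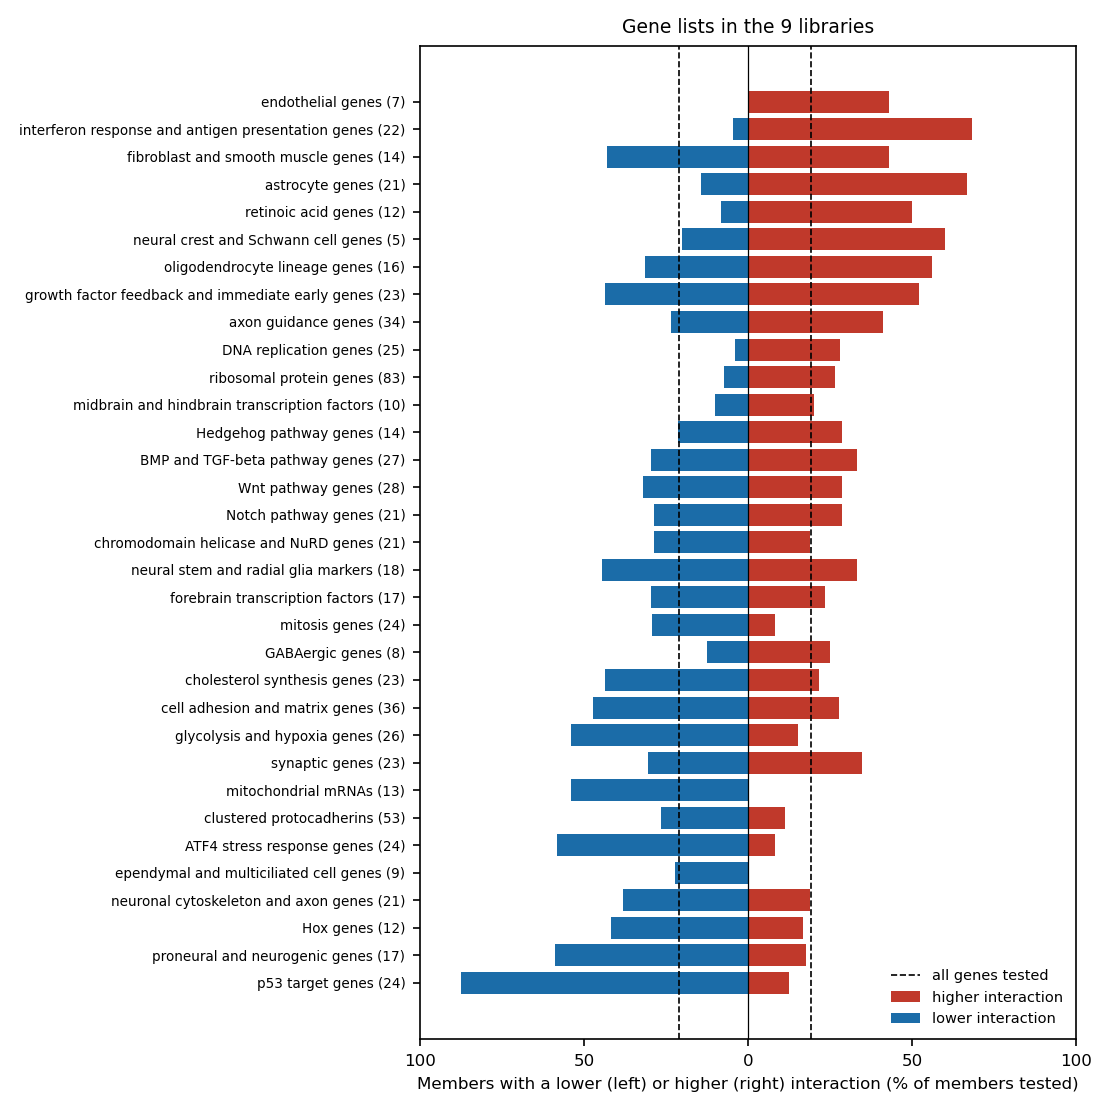
Share of the members of each gene list with a lower (left) or higher (right) interaction in the 9 libraries, as a percentage of the members tested (number in brackets), for lists with at least 5 members tested, ordered by median interaction. Dashed lines mark the shares among all genes tested, 21.1% lower and 19.3% higher; the p53 target genes lie lowest by median, and the interferon and astrocyte genes reach furthest to the right.

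Several genes with known genotype differences were not interaction genes with 12 libraries. Gpr17, a receptor gene of committed oligodendrocyte precursors, measured 0, 0.114 and 0.111 CPM (wild type) and 0.727, 1.07 and 0.797 CPM (labelled Chd5-/-) at 3 h, and 0.977, 0.539 and 0.738 CPM (wild type) and 34.1, 34.6 and 34.8 CPM (labelled Chd5-/-) at 48 h. It was above wild type at both times in every library, and the interaction was 2.28 ± 0.74 SE, edgeR adjusted p = 0.382. Irx1, a patterning transcription factor gene, measured 0, 0.0569 and 0.166 CPM (wild type) and 7.1, 5.68 and 6.77 CPM (labelled Chd5-/-) at 3 h, and 0.55, 0.202 and 0.909 CPM (wild type) and 22.4, 11.8 and 22.4 CPM (labelled Chd5-/-) at 48 h, with an interaction of -1.08 ± 0.85 SE, edgeR adjusted p = 0.661. Edil3, an extracellular matrix protein gene, had 0 reads in all 6 libraries labelled Chd5-/-, and was at least 434-fold lower at 3 h and at least 862-fold lower at 48 h against the floor of 3 reads, so a change in its difference between the times cannot be measured. Hhip, a Hedgehog pathway inhibitor gene, had an interaction of 2.90 ± 1.58 SE, edgeR adjusted p = 0.554.

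Acta2, the smooth muscle actin gene, measured 6.79, 3.59 and 2.72 CPM (wild type) and 598, 574 and 566 CPM (labelled Chd5-/-) at 3 h, and 3.91, 0.27 and 1.93 CPM (wild type) and 3.47, 10.5 and 3.72 CPM (labelled Chd5-/-) at 48 h. The groups were far apart at 3 h and overlapped at 48 h, and the interaction of -5.54 ± 1.03 SE missed the threshold (edgeR adjusted p = 0.0619). In the 9 libraries it was -7.19 ± 0.36 SE (adjusted p = 8.44e-09) and the gene sorted as lost. At 48 h, the lowest wild-type value and the highest of the libraries labelled Chd5-/- were those of replicate 2. Camk2a, a calcium-dependent kinase gene of synapses, measured 7.19, 11.7 and 13.3 CPM (wild type) and 6.76, 6.82 and 7.74 CPM (labelled Chd5-/-) at 3 h, and 133, 11.2 and 135 CPM (wild type) and 10.5, 2.14 and 11 CPM (labelled Chd5-/-) at 48 h. At 48 h wild-type replicate 2 lay far below the others of its group, and the interaction was -2.96 ± 1.10 SE, edgeR adjusted p = 0.399 in 12 libraries and -2.81 in 9.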

How the data were processed

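RNA-seq of 12 libraries in 4 groups of 3 was used. The deposited transcript tables hold estimated counts and effective transcript lengths made by the authors with Salmon, per the submitters' processing notes; its version, index and strand setting were not given in the sources used. Expected counts were summed to 54356 genes by GENCODE M21 (GRCm38) and rounded to whole numbers; 521 of 140658 transcripts, with 0.135% to 0.181% of reads, had no match and were left out. Depth was 14.11 to 18.71 M reads. Genes were kept by edgeR's filterByExpr (minimum count 10, minimum total 15), scaled by TMM and tested by the quasi-likelihood F test (edgeR 4.0.16, R 4.3.3) with 1 mean per group; fold changes are log2, and p-values were adjusted over all genes. Each SE is the absolute log2 fold change divided by the square root of its F statistic, and was not taken from the model directly. DESeq2 1.42.0 and limma 3.58.1 voom were alternatives, among 23 in all. The steps were tested on simulated data.

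Members and gene lists were chosen with earlier results of these data known. All 37 interaction genes are named as members. Others are named by rule: the 4 with the smallest interaction p in each class of the 9-library fit (highest group at least 5 CPM, no placeholder names or pseudogenes, autosomal), list members that passed, and genes fixed by name. Some named genes are not reported here.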

Additional observations from a re-analysis of the deposited data

Results flagged for a closer look

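The genotype effect differed between 3 h and 48 h in the 37 interaction genes, by a test of the difference itself (edgeR interaction term, adjusted over 16043 genes). The log2 interaction was, for the gained genes, B3gat2 (3.13), Dchs1 (-2.34), Sel1l3 (-2.67), Insm1 (-3.13), Plppr1 (2.92), Gm11549 (-3.50) and Adra1b (3.74). For the lost genes it was Anxa2 (5.41), Sparcl1 (5.51), Eml2 (4.91), Sirt6 (5.04), Sulf1 (-3.69), Tns2 (2.22), Rin3 (-5.52), Grid1 (3.17), Scarf2 (-3.73), Abcg4 (-3.28), Rtl5 (3.41), C1qtnf6 (3.74), Tmem71 (4.37), Ndn (2.36) and Ankrd24 (2.00). For the faded genes it was Mxra8 (4.76), Six3os1 (3.93), Coro2b (2.91), Ank3 (-3.94) and Zc3hav1 (-3.70), for the grown gene Htr3a (-2.31) and for the reversed genes Kcna2 (-2.41), Col5a2 (5.11), Ing4 (3.69) and Lrrtm1 (2.97). For the 5 genes with 3 or fewer reads in a group the adjusted p stands in place of a fitted value: Zfp345 (0.0267), Ddit4l (0.00199), Nkx2-2 (0.00476), Shisa6 (0.0365) and Twist1 (0.00248). Groups of 3 libraries are too small for a test of single outlying libraries, so none was made.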

How the results depend on the processing

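All 37 interaction genes kept their direction under each of the 23 alternatives, which refit the libraries that chose them. How many genes passed depended on the setting. RLE scaling called 2 grown genes. No filter on low counts called 26 lost and 2 reversed genes, and a filter of 1 CPM called 27 lost and 2 grown. DESeq2 called 385 interaction genes, of which 79 were gained, 205 lost, 49 faded, 7 grown, 14 reversed and 31 unsorted. The effective length offset left 3 gained genes and moved the share of higher interactions from 59.5% to 69.2%. Without the 3 libraries that stood apart 6669 passed, 1617 gained, 1963 lost, 1101 faded, 583 grown, 1259 reversed and 146 unsorted. Without replicate 2 of both genotypes at 48 h, 499 passed, 101 gained, 273 lost, 53 faded, 17 grown, 37 reversed and 18 unsorted. Leaving out 1 library called 15 to 310 in all, 1 to 82 gained, 7 to 145 lost, 2 to 40 faded, 0 to 9 grown, 1 to 29 reversed and 0 to 5 unsorted. Among genes that did not pass with 12 libraries, leaving out 1 library turned the sign of the Mthfd1l interaction (range -2.97 to 0.64, turned without wild type replicate 2 or replicate 1 or 3 labelled Chd5-/- at 48 h), the Fbln2 interaction (-4.375 to 0.64, wild type replicate 2 at 48 h) and the Crls1 interaction (-0.45 to 0.015, replicate 1 or 3 labelled Chd5-/- at 48 h). The cause was not tested for any of these.

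A replicate block was fitted because the groups share numbers. Deviations of same-numbered libraries correlated at 0.15, 0.08 and 0.05 at 3 h, at 0.56, 0.74 and 0.56 at 48 h, and at -0.01 to 0.02 within a genotype. A threshold of 0.1 was passed in every pair at 48 h, by replicate 1 alone at 3 h, and by no pair within a genotype across the times. Deviations within a group cancel, so replicate 2 standing apart in both genotypes at 48 h also ties replicates 1 and 3. Libraries with different numbers were not compared, so these values cannot decide whether the numbers 1 and 3 pair libraries. A block within time called 33 interaction genes, 2 of them gained, with 17 of the 37 among them. A block within genotype called 3, all among the 37. Its classes are not given, since the genotype difference at a single time cannot be separated from such blocks. A block over all groups called 18, all among the 37, with 1 gained, 9 lost, 4 faded and 3 reversed. Depth limits genes with few reads, where 3 or fewer in a group leave only a bound or a wide ratio.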
